A study of Drosophila melanogaster with 2 samples.

Results

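Deep intronic binding regions of the transcription factor MTF-1 were described in Drosophila melanogaster embryos. They were the peaks whose summit lay inside an annotated transcript, in no exon, and more than 5000 bp from the nearest transcript start of any gene. This position rule, applied to Ensembl gene models without transposable elements, found 352 of 3587 thresholded peaks (9.81%, 95% exact Clopper-Pearson interval 8.86 to 10.8%). Chromatin immunoprecipitation followed by sequencing had been done on whole, mixed-sex embryos aged 0 to 24 h from 1 transgenic line (strain MTF-1-GFP), which carries MTF-1 with GFP fused to its C terminus. There was 1 group of 2 samples, biological replicates 2 and 4, and the labels name no untagged group and no metal treatment. The labels do not say whether the replicates came from separate crosses. The labels conflict: a free-text field describes each sample as an input control, whereas antibody and assay fields describe an immunoprecipitate. Both were taken as immunoprecipitates here, since a further file, common to the lists, is named in the read-me as one of their sources. All stages and tissues of embryogenesis were mixed, so a region bound weakly in many cells and a region bound in few cells cannot be told apart.

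MTF-1 is a zinc-finger transcription factor that activates metallothionein and metal transporter genes when zinc, copper or cadmium rises, and protects flies against toxic metal. It recognises metal response elements (MREs), short sequences whose core reads TGCACNC or TGCGCNC. Long introns of fly developmental genes hold many of the enhancers that switch those genes on in particular tissues, and such enhancers are bound by tissue-specific factors, among them forkhead proteins, which recognise TGTTTAC and related letters.

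Windows of 4 of the stronger deep intronic peaks that had an MRE core within 50 bp of the summit are shown first, because the core is the motif to which MTF-1 is known to bind. Each sequence is the summit base with 50 bp to each side, on the plus strand of dm6, from RefSeq's copy of the assembly, with the core (or its reverse complement) in capitals; in the window at stx the capitals run on through an overlapping TGCATA. The windows lie at chr3R:16236967-16237067 (tara, whose product is a transcriptional coregulator), chrX:13634579-13634679 (NFAT, a Rel-family transcription factor), chrX:10737591-10737691 (stx) and chrX:14218118-14218218 (Prp16, a splicing helicase).
tara: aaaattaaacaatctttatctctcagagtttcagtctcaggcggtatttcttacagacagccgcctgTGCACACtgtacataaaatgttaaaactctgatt
NFAT: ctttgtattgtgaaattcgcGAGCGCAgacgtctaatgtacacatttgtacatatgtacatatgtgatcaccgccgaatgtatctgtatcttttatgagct
stx: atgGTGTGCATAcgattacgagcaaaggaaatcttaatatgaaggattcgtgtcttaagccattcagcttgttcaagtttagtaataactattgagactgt
Prp16: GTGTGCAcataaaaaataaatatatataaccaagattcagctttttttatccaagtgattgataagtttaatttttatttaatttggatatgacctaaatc

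Windows at vn and S, among the strongest deep intronic peaks without a core, are shown for contrast, followed by others with TGTTTAC, with TGCATA (a short fragment of the Su(Hw) insulator protein's longer site) and with a run of A, the 3 listed sequences whose share at summits differed from that at the lower-coordinate flank. Peaks on 1 chromosome arm are not shown. Capitals mark the motif on either strand: TGTTTAC or GTAAACA at S, pum and Raf, overlapping copies of TGCATA and its reverse complement at Hr4, and the A run at rdx. The window at vn holds none of these and is in lower case throughout, but repeats the related letters TGTTTGT. Of that window 54.5% was masked as repeat in the assembly. The windows lie at chr3L:5824247-5824347 (vn), chr2L:1072346-1072446 (S), chr3R:9127035-9127135 (pum), chrX:2300627-2300727 (Raf), chrX:1947677-1947777 (Hr4) and chr3R:14012690-14012790 (rdx); those at pum and Raf were chosen after their values were seen.
vn: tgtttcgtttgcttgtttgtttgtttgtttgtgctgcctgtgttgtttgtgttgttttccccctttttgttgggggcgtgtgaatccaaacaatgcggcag
S: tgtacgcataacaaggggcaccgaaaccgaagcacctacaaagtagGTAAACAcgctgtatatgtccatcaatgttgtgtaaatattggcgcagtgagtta
pum: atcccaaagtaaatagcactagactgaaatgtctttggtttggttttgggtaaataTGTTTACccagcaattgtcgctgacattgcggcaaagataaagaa
Raf: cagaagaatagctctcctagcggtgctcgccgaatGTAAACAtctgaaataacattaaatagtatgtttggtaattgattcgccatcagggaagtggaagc
Hr4: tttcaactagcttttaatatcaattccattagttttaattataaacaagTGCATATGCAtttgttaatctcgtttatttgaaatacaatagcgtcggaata
rdx: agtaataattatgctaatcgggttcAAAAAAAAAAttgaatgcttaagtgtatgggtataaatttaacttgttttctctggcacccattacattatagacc

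The strongest deep intronic peaks lay in sbb, Lrch, vn and S. Signal is the value that the authors' peak caller gave to each region on the pooled reads; its scale is not stated, so it was used only to rank and compare regions within 1 list, and it has no SD. Ranks run from 1, the strongest, and each replicate list holds its own signal. The strongest member lay in the first intron of sbb, which encodes a transcriptional corepressor, at chr2R:18336909-18337338, 20104 bp from the nearest start. Its signal was 1324 and its rank 11 of 3587, with rank 11 and signal 578 in replicate 2 and rank 19 and signal 745 in replicate 4. It was near the top of both replicate lists. The peak in Lrch, which encodes a cytoskeletal leucine-rich repeat protein, had signal 1092 (rank 28), with signal 452 and rank 28 in replicate 2 and signal 628 and rank 31 in replicate 4. The peak in vn, which encodes a neuregulin-like ligand of the EGF receptor, had signal 870 (rank 45), with rank 32 in replicate 2 and rank 60 in replicate 4. It lay 11204 bp from the nearest start, which was that of mad2. The peak in S (Star), whose product helps to process another EGF receptor ligand, had signal 668 (rank 78), with ranks 90 and 97 in replicates 2 and 4. These 4 were the only members among the 100 strongest peaks of the list.

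The others of the 20 strongest members lay in genes of varied roles. The peak in Gug (Atrophin, a corepressor) had signal 605, with rank 213 in replicate 2 and rank 82 in replicate 4. The peak in apt (a transcription factor of tracheal and head development) had signal 581, with ranks 109 and 131. The replicates ranked apt closer together than Gug. Nuclear receptors of the ecdysone cascade hosted 3 of these peaks: the peak shared by Hr3 and the overlapping genes CG12912 and CG46321 had signal 485 (ranks 410 and 111), that in Hr4 had 472 (ranks 236 and 162), and that in Eip75B had 466 (ranks 179 and 269). Cell-surface proteins were among the hosts too. The peak in fra, which encodes the Netrin receptor Frazzled, had signal 518, the peak in fz, which encodes the Wnt and planar polarity receptor Frizzled, had 441, and the peak in caps, which encodes a leucine-rich repeat adhesion protein, had 437. The rest of the 20 strongest were in CG32486 (538), e(y)3 (484, a subunit of a SWI/SNF remodelling complex), lncRNA:CR44357 (470), sbb again (464), crp (420, a bHLH factor), bab1 (343, a BTB-domain transcription factor), dnr1 (340) and pum (340, a translational repressor). All 20 ranked within the strongest 482 regions of replicate 2 and the strongest 430 of replicate 4.

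**Figure D1:**
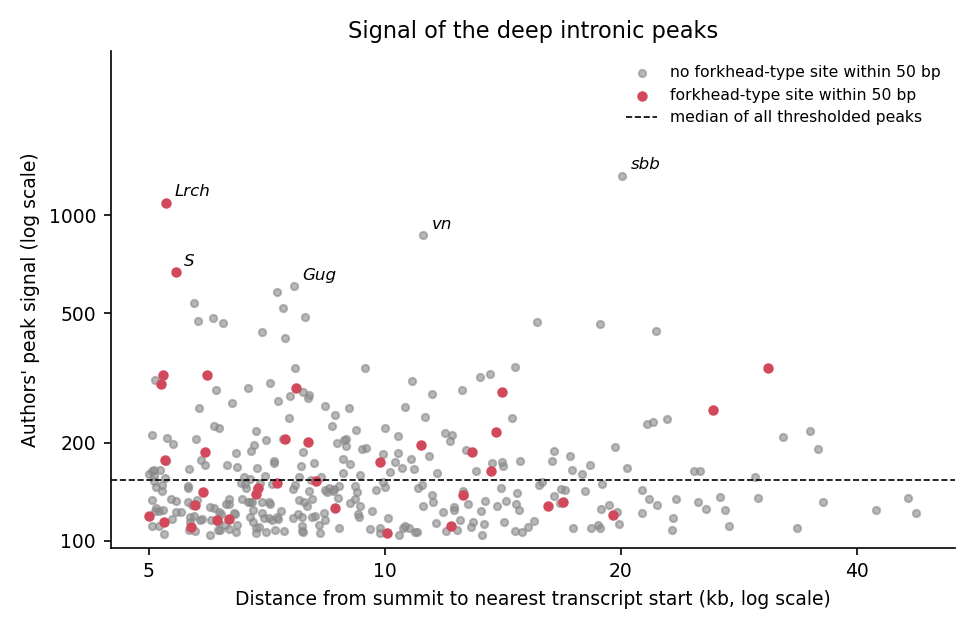
Signal of the 352 deep intronic peaks in the thresholded list (log scale) against the distance from summit to nearest transcript start (kb, log scale), 1 point per peak. Red points have TGTTTAC (forkhead-type site) within 50 bp of the summit, the dashed line is the median of all thresholded peaks (154), and the peak in sbb is the highest point at 1324.

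Deep intronic peaks were weaker than other peaks. Their signal ran from 104.1 to 1324 with a median of 143 (quartiles 121 and 188), against a median of 155 in the other 3235 peaks. Of the members, 143 (40.6%, interval 35.5 to 46.0%) reached the median of the list, against 1651 other peaks (51.0%; two-sided Fisher's exact p = 0.000208) and 320 of 611 intronic peaks 1 to 5 kb from a start (52.4%; Fisher's exact p = 0.000493). Against 158 of 330 intergenic peaks over 1 kb from a start (47.9%), the difference did not pass at 0.05 (Fisher's exact p = 0.0640). The upper quartile of the list was reached by 55 members (15.6%), against 26.0% of other peaks, 26.5% of intronic peaks 1 to 5 kb from a start and 23.3% of the intergenic ones (Fisher's exact p = 9.65e-06, 8.40e-05 and 0.0117, not adjusted over the 6 comparisons of signal). The range of the members was close to that of intronic peaks 1 to 5 kb from a start (104.0 to 1291). The other 3235 peaks reached 16205. In these and all later tests the units were peaks, not biological replicates, neighbouring peaks are not independent, and intervals cover the counting of regions only, since the depth of each sample is unknown.

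The members nearest to the boundary at 5000 bp were of low to middling signal. Just inside it were peaks in Sesn and the overlapping CG46429 (5005 bp, signal 119), Eip75B (5006 bp, 160), bmm (5046 bp, 164) and CG33158 (5048 bp, 111). Just outside were peaks in tara (4995 bp, 274), heca (4987 bp, 132), bun (4979 bp, 277) and cno (4976 bp, 127).

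Nearly every member overlapped a region in both replicate lists, but the replicates ranked them differently. The thresholded list was made from these lists, so the overlap describes it and is no separate check. A region overlapping by at least 1 bp was present for 341 members (96.9%) in replicate 2 and for all 352 in replicate 4, where each list holds many weak background regions. Among only as many regions as the thresholded list holds, 234 members (66.5%) were found in replicate 2 and 305 (86.6%) in replicate 4. Both held 199 (56.5%), replicate 4 alone held 106 (30.1%), replicate 2 alone held 35, and neither held 12. The same shares in other peaks were 71.2% for replicate 2, 83.2% for replicate 4 and 59.3% for both, and no difference from the members passed (Fisher's exact p adjusted over 5 measures 0.241, 0.241 and 0.415). The median member ranked 2640 in replicate 2 and 1986 in replicate 4. Across the 341 shared members Spearman's rho between the ranks was 0.37, against 0.48 across 3080 other peaks; these describe regions chosen from the same libraries. The peak in Psc, which encodes a Polycomb group protein, ranked 1800 in replicate 2 and 312 in replicate 4, and the peak in tara shown above ranked 4238 and 346. Summits moved by a median of 18 bp in replicate 2 and 9 bp in replicate 4.

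**Figure D2:**
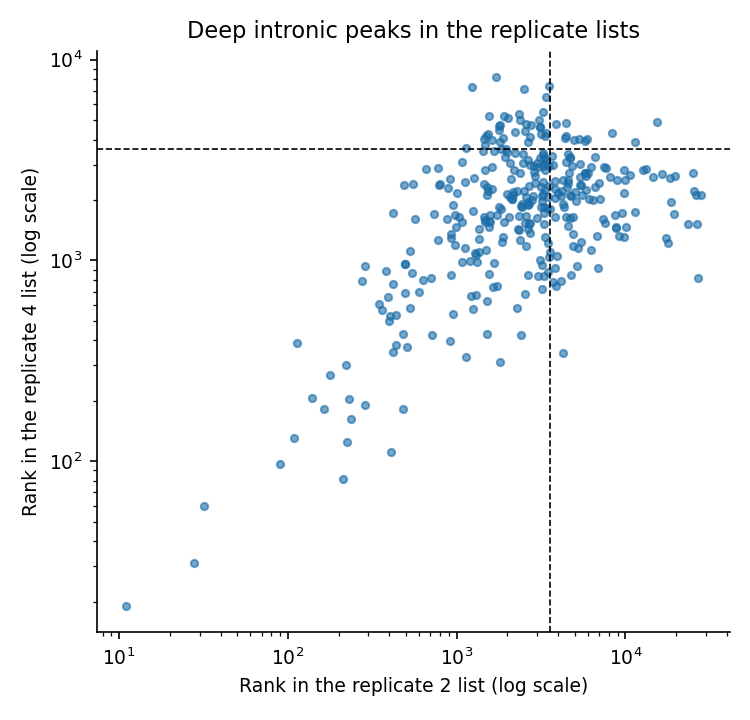
Rank of each deep intronic peak in the list of replicate 2 against its rank in the list of replicate 4 (both log scales, 1 the strongest; 341 peaks found in both), with dashed lines at rank 3587. The strongest members lie near the diagonal, and the weaker ones scatter widely, with a median rank of 2640 in replicate 2 and 1986 in replicate 4.

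Peaks thinned out with distance from transcript starts. Deep intronic sequence made up 28.3 Mb, or 21.1% of the 133.9 Mb searched, and held 12.4 peaks per Mb, against 30.6 per Mb in all other sequence. Within introns the density was 38.2 per Mb at 1 to 2 kb from a start, 26.1 at 2 to 5 kb, 19.5 at 5 to 10 kb (216 peaks), 12.1 at 10 to 20 kb (104 peaks) and 3.70 beyond 20 kb (32 peaks). Weak regions of the pooled list, those below its median signal that overlapped no thresholded peak, also thinned out, from 163 to 148, 129, 111 and 49.0 per Mb over the same ranges. From the nearest to the farthest range the fall was steeper for the thresholded peaks, a comparison that was not tested. The median distance was 8397.5 bp, and the farthest member lay in hth, 47664 bp from any start. Between chromosome arms the density ran from 10.9 per Mb on 3R (90 peaks) to 16.4 on 2L (68 peaks), with 12.1 on 2R, 12.6 on 3L and 12.5 on X. Chromosome 4 held 0 members in 0.259 Mb of deep intronic sequence, where a count of 0 allows up to 11.6 per Mb.

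**Figure D3:**
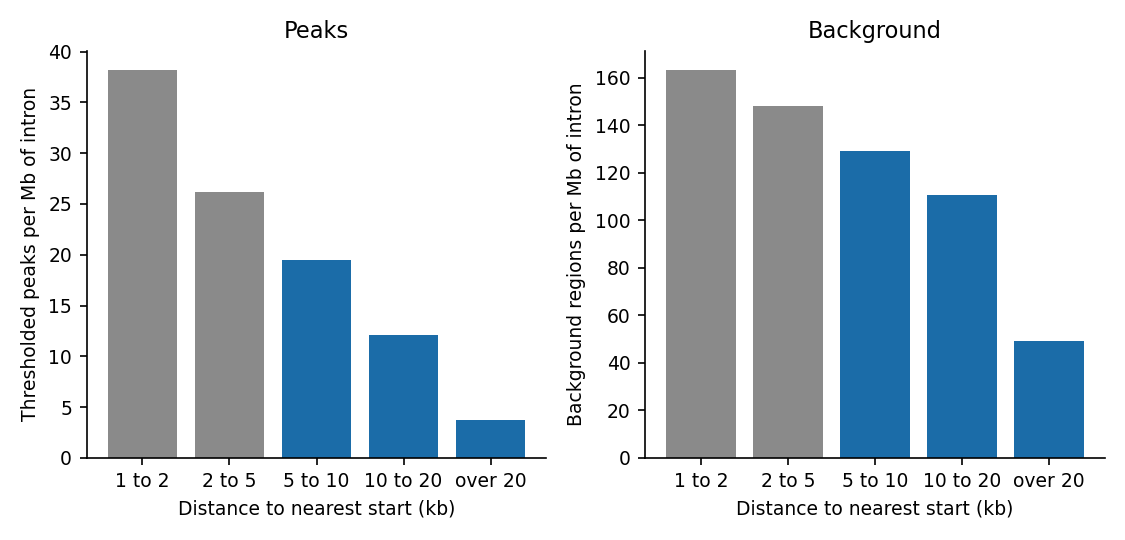
Thresholded peaks and weak background regions per Mb of intronic sequence by distance from the nearest transcript start (kb), as bars, with deep introns in blue. Peaks fall from 38.2 per Mb at 1 to 2 kb to 3.70 per Mb beyond 20 kb, and background regions from 163 to 49.0.

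First introns held more deep intronic peaks than their length would give. In 200 members (56.8%) the summit lay in the first intron of at least 1 transcript, whereas first introns made up 31.2% of deep intronic sequence and held 1153 of the 2801 weak background regions in deep introns (41.2%; Fisher's exact p = 3.48e-08, adjusted over 4 comparisons 1.39e-07). The difference was also present within each range of distance. At 5 to 10 kb the share was 58.3% of members against 47.8% of background regions (adjusted Fisher's exact p = 0.00582), at 10 to 20 kb 53.8% against 35.3% (0.000523), and beyond 20 kb 56.2% against 31.8% (0.00646). Among the deep intronic regions that ranked within the first 3587 of each replicate list, 186 of 328 (56.7%) in replicate 2 and 203 of 373 (54.4%) in replicate 4 were in first introns. The comparison with background regions was added after the share was seen. The shortest intron around a member had a median length of 16111.5 bp, and 147 members (41.8%) lay in introns longer than 20000 bp, which made up 52.0% of deep intronic sequence. The nearest start was that of the host gene for 220 members (62.5%) and of another gene for 132. No member lay in any of the 5809 annotated transposable elements (0 of 352, for which the interval reaches 1.04%), and 26 had over 50% of the summit window masked as repeat. Near other members, within 5 kb, were 92. None lay within 100 kb of MTF-1 itself. The counts for nearest starts, transposable elements, repeat masking and neighbouring members were not set beside those of background regions. They therefore show neither preference nor avoidance.

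The members were spread over 251 host genes. Of 1760 protein-coding genes with any deep intronic sequence, 244 (13.9%) held at least 1 member, and the share rose with the length of that sequence, from 4.63% of genes with at most 5 kb to 17.9% with 5 to 20 kb and 27.6% above 20 kb. Among all hosts 181 held 1 peak, 40 held 2, and 30 held 3 or more. sbb and cic held 6 each, the highest number. In sbb the signals were 1324, 464, 232, 227, 140 and 130, while in cic, which encodes the HMG-box repressor Capicua, they were lower, at 197, 151, 144, 129, 129 and 110. The signals in sbb thus spanned a wider range than those in cic. Eip75B held 5 (466, 191, 169, 160 and 117), as did jing, which encodes a zinc-finger transcription factor (252, 244, 188, 129 and 111). The shortest deep sequence among hosts of 5 peaks, 9.10 kb, was that of PRAS40, a component of the insulin and TOR pathway (286, 156, 150, 134 and 126). The longest, 100.7 kb, was that of hth, which encodes the homeodomain partner of Hox proteins (188, 151, 121, 110 and 105). Hosts of 4 peaks were fz, rdx (an adaptor of a ubiquitin ligase in Hedgehog signalling), Snoo (a Ski family corepressor), Tet (a dioxygenase that acts on methylated bases), NetA (a Netrin) and kirre (an adhesion protein of myoblast fusion).

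Protein-coding host genes also had a thresholded peak within 1 kb of 1 of their own starts more often than nonhosts did. Such a peak was present in 131 of 244 hosts (53.7%) and in 390 of 1516 other genes with deep intronic sequence (25.7%). The gap was of like size among genes with at most 5 kb of deep intronic sequence (55.3% against 28.1%), with 5 to 20 kb (54.1% against 23.9%) and with more than 20 kb (52.8% against 21.9%). It is a description, with no test. Among the 6 hosts of 5 or more peaks, hth alone had no such start peak.

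**Figure D4:**
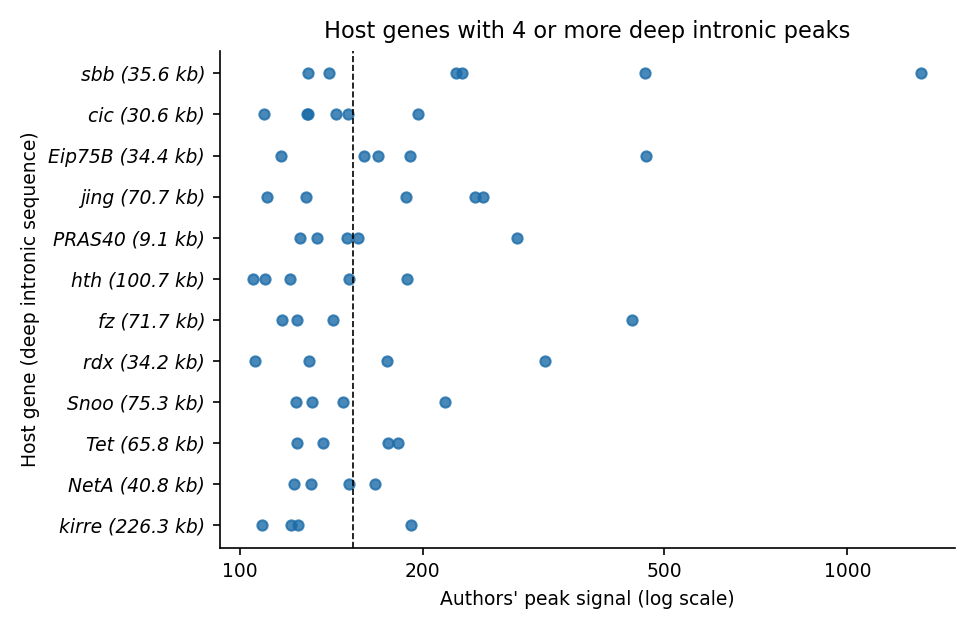
Signal (log scale) of each deep intronic peak in the 12 host genes with 4 or more, 1 point per peak; the length of deep intronic sequence stands beside each name and the dashed line is the median of all thresholded peaks (154). sbb reaches the highest signal (1324), and sbb and cic have 6 peaks each.

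Lists of genes by role differed in how densely they were occupied, beside the 12.4 peaks per Mb and 13.9% of genes over all deep intronic sequence; these are counts with no test, and the lists were drawn up with earlier results known. The chromatin and Polycomb list had 10 peaks in 5 of 17 genes, or 40.8 per Mb: sbb held 6, and bab1, bab2, Psc and trx (a histone methyltransferase that opposes Polycomb) held 1 each. sbb was put in that list with its peak known, so 6 of those 10 peaks are no independent sign of its direction. Of the other hosts, bab1 encodes a BTB-domain transcription factor. Psc and trx, the hosts with a Polycomb or histone role given here, held 1 peak each. The nuclear hormone and ecdysone list had 11 peaks in 5 of 14 genes (34.5 per Mb): Eip75B held 5, Hr4 held 3, and Hr3, EcR (the ecdysone receptor) and ftz-f1 held 1 each. The list of signalling ligands and receptors had 12 peaks in 8 of 23 genes (34.0 per Mb), with 4 in fz, 2 in fz2 and 1 each in vn and N (Notch) among them. Homeodomain regulators had 12 peaks in 5 of 35 genes (14.3% of genes, 22.2 per Mb), of which hth held 5, Antp (a Hox gene of the thorax) 3 and Lim1 2.

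Lists of neuronal, muscle and RNA-binding genes had fewer peaks per Mb, although in 2 of them the share of genes that were hosts was above the 13.9% over all genes. The lists differed in deep intronic sequence. It came to 1.07 Mb in 18 RNA-binding genes and 1.74 Mb in 41 neural adhesion genes. The 17 chromatin and Polycomb genes had 0.245 Mb, and the 19 muscle genes 0.148 Mb. Density also fell with distance from starts, and the part of intron length in these differences was not tested. Ion channels and neurotransmitter receptors had 2 peaks in 2 of 40 genes, Shal and Ca-alpha1T, or 2.07 per Mb. Muscle and cytoskeleton genes had 1 peak in 19 genes, in Zasp52 (6.74 per Mb). Neural adhesion and axon guidance genes had 17 peaks in 7 of 41 genes (17.1% of genes, 9.76 per Mb), led by NetA and kirre with 4 each and ed with 3. RNA-binding and splicing genes had 5 peaks in 4 of 18 genes (22.2% of genes, 4.67 per Mb), with 2 in pum and 1 each in heph, how and bru1. The metal homeostasis list, the genes of MTF-1's known function, had 0 peaks in 5 genes, whose deep intronic sequence came to only 0.0148 Mb.

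No excess of MRE cores over the flanks was detected at deep intronic summits. A core lay within 50 bp of the summit in 34 members (9.66%, interval 6.78 to 13.2%). In windows of the same length shifted by 500 bp, 37 members (10.5%) had one on the lower-coordinate side and 34 (9.66%) on the higher-coordinate side (exact McNemar p = 0.807 and 1). The letters TGCACAC stood in 15 summit windows, against 9 and 8 flank windows, which did not pass either (exact McNemar p = 0.307 and 0.210, unadjusted). The share with a core was 11.6% in the other thresholded peaks (376 of 3235) and 9.98% in intronic peaks 1 to 5 kb from a start, and neither difference from the members passed (Fisher's exact p, adjusted over both, 0.582 and 0.911). In the list of replicate 2 alone, without replicate 4, the difference (members minus other peaks) was -4.78 points, which passed (adjusted Fisher's exact p = 0.0259). In the other peaks the flanks held fewer, 8.25% and 8.69% (exact McNemar p = 6.77e-06 and 9.31e-05, unadjusted). Intronic peaks 1 to 5 kb from a start had 6.87% and 7.20% in the flanks, which did not pass (exact McNemar p = 0.0642 and 0.100, unadjusted). Weak background regions of deep introns had 8.60% at summits and 7.18% and 6.96% in the flanks (exact McNemar p = 0.0499 and 0.0250, unadjusted). The 3235 other peaks and 2801 background regions outnumbered the 352 members, so smaller differences could pass in them. The core was found in 8.64% of the 14859 weak background windows of the same length across the genome.

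The members with a core were of middling signal. The strongest were the peaks at Hr3 (485, core 41 bp below the summit), PRAS40 (286, core 8 bp above), tara (255, TGCACAC 20 bp above), the overlapping genes tun and Zasp52 (255, 24 bp above) and NFAT (237). Among those that followed were stx (218), Prp16 (206), CG6959 (194) and hth (188, core 1 bp from the summit). At hth the summit moved by 180 bp in replicate 2 and -91 bp in replicate 4, and at tara by 142 bp and -4 bp. The median signal was 140.0 with a core and 143 without.

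**Figure D5:**
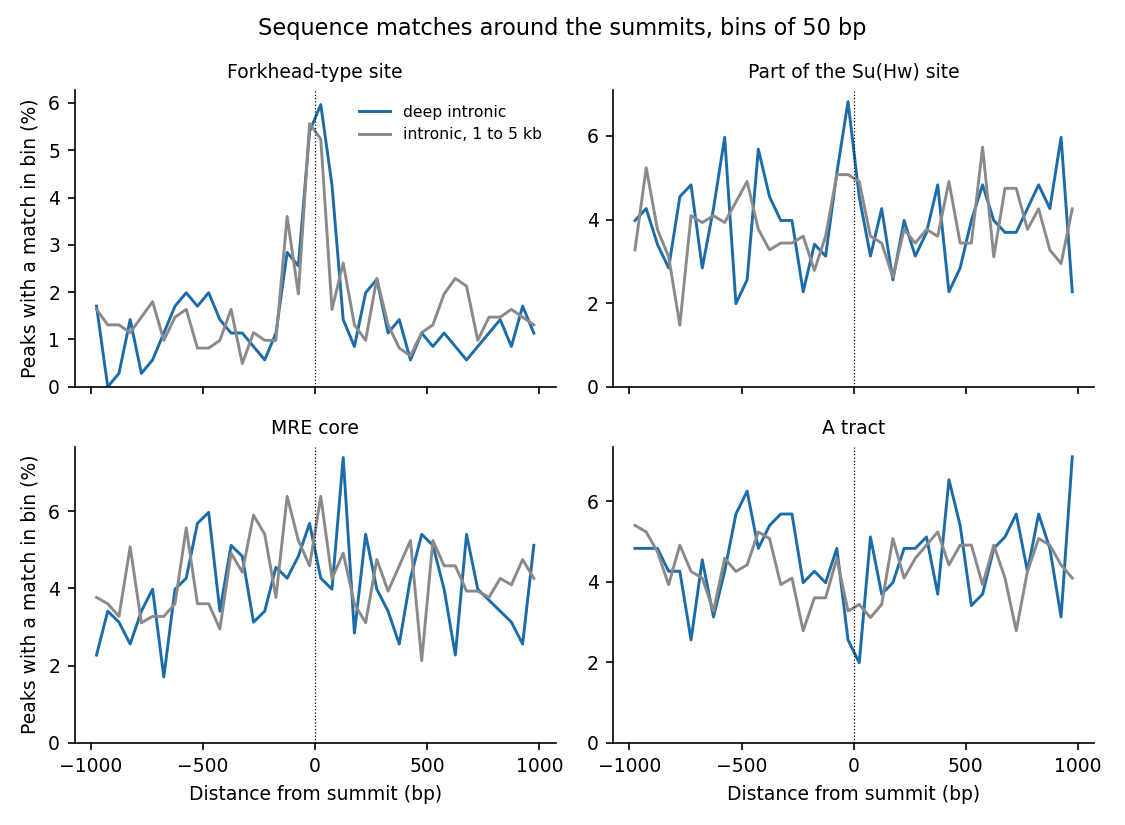
Percent of deep intronic peaks (blue) and of intronic peaks 1 to 5 kb from a start (grey) with a motif in bins of 50 bp against distance from the summit (bp), for TGTTTAC (forkhead), TGCATA (Su(Hw)), the MRE core and the A tract. TGTTTAC is highest in the bins next to the summit, at 5.40% and 5.97%, while TGCATA reaches 6.82% there but also 5.97% in a bin 575 bp away.

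TGTTTAC was the listed motif that set summits apart from both flanks. Of 27 listed motifs, 3 (11.1%) differed between summit and lower-coordinate flank and 1 (3.70%) between summit and higher-coordinate flank (exact McNemar tests, Benjamini-Hochberg adjusted p under 0.05). TGTTTAC stood in 36 summit windows (10.2%, interval 7.27 to 13.9%), 12 windows of the lower flank (3.41%; adjusted exact p = 0.00646) and 7 of the higher flank (1.99%; adjusted exact p = 0.000242). Its sites lay a median of 18 bp from the summit, and 24 of the 36 members had 1 within 25 bp. TGCATA stood in 38 summit windows (10.8%), above the 14 of the lower flank (adjusted exact p = 0.00646) but not beyond the 23 of the higher one (adjusted exact p = 0.341). A run of 8 A was rarer at summits, in 14 windows (3.98%), than on the lower flank, in 41 (11.6%; adjusted exact p = 0.00178), and against the 29 on the higher flank it did not pass (adjusted exact p = 0.213). The full Su(Hw) consensus, a longer site, was in 5 summit windows, 1 lower flank and 0 higher flanks. Homeodomain letters TAATTA stood in 17 summit windows against 32 and 38 in the flanks, which did not pass after adjustment (exact p 0.154 and 0.0513). Over all 14859 background windows of the same length TGTTTAC was in 2.65%, TGCATA in 6.85% and the A run in 5.25%. Both strands were searched throughout.

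All 6-letter words were then compared in the same way. Of 2080 words, each counted with its reverse complement, 10 (0.481%) differed between summit and lower flank and 11 (0.529%) between summit and higher flank, and 7 were in both sets, all commoner at summits. GTAAAC and TAAACA, which lie within TGTTTAC read on the other strand, were in 60 summit windows (21 and 13 in the flanks; adjusted exact p = 0.00219 and 1.57e-05) and 90 (45 and 48). The other 5 were also rich in A and T: CAAATA in 93 windows (33 and 47 in the flanks), AAATAT in 105 (47 and 55), CAAACA in 92 (40 and 43), AAACAT in 73 (26 and 34) and ACAAAT in 92 (45 and 44). Words within 1 site are not independent of each other. GGAGCC, in 1 summit window and 19 lower flanks, was the 1 word of the lower-flank set that was rarer at summits.

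Base composition differed between summits and flanks, and between the replicates. Summit windows were 37.6% G and C on average (SD 8.66, over 352 windows), against 40.5% in the lower flanks. In the deep intronic regions of replicate 2 the summits were at 41.4% and the flanks at 40.4%, while in those of replicate 4 they were at 34.9% and 40.5%. The direction was thus opposite in the 2 lists. Members with TGTTTAC had a median of 40.1% G and C, against 36.6% in those without. The part of base composition in the motif counts was not tested.

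Each replicate list alone gave the TGTTTAC difference in the same direction. Among the deep intronic regions that ranked within the first 3587 of replicate 2, 32 of 328 (9.76%) had the letters at the summit, against 2.74% and 2.44% in the flanks (adjusted exact p = 0.0116 and 0.00492). In replicate 4, 29 of 373 (7.77%) had them, against 2.68% and 2.41%, which passed on the higher side (adjusted exact p = 0.0448) and not on the lower (adjusted exact p = 0.0912). Some related letters behaved alike: TGTTTGC was in 47 members (13.4%; 13 and 11 in the flanks) and TGTTTGT in 42 (11.9%; 17 in each flank). The excess was smaller for TGTTTAT, in 30 members (8.52%; 18 and 24 in the flanks), and TGTTTTT was in 35 (31 and 34). Further related forms were counted and are not named here. At least 1 of the first 3 of these forms (TGTTTAC included, the T-rich form left out) stood in 95 members (27.0%), against 11.4% and 9.09% of the flanks. In replicate 2 these shares were 29.3%, 11.0% and 10.1%, and in replicate 4 they were 23.6%, 13.1% and 8.85%. The forms named and pooled were chosen after values were seen, so the pooled share rests on picked forms. The related forms and the pooled share were given no test. The related forms were not recounted without windows masked as repeat.

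TGTTTAC was also common in intronic peaks nearer to starts. It was in 59 of 611 intronic peaks 1 to 5 kb from a start (9.66%), 0.571 points below the members, a difference that did not pass (Fisher's exact p, adjusted over 15 comparisons, 0.881). It was rarer in intergenic peaks over 1 kb from a start (4.55%; adjusted Fisher's exact p = 0.0202), in peaks within 1 kb of a start (5.72%; 0.0202) and in weak background regions of deep introns (74 of 2801, 2.64%; 8.41e-09). TGCATA differed from the peaks within 1 kb of a start (6.49%; adjusted Fisher's exact p = 0.0202), and did not pass against deep intronic background (8.25%; 0.199). The A run passed in none of its 5 comparisons. TGTTTAC was in 6.40% of all other thresholded peaks (adjusted Fisher's exact p = 0.0295). Peaks within 1 kb of a start had fewer in their flanks, 2.66% and 2.25% (exact McNemar p = 3.74e-07 and 5.24e-09, unadjusted). The intergenic peaks had 2.12% and 1.82% there, which did not pass (exact McNemar p = 0.115 and 0.0784, unadjusted). A TGTTTAC excess over flanks was thus not limited to deep intronic peaks. These comparisons were added after the flank results were seen.

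Members with TGTTTAC covered most of the range of signal. Their signals ran from 105 to 1092 with a median of 158, against 142 in the 316 members without, and 16 of the 36, against 84 of the 316, were among the 100 strongest members. Their median rank was 1535.5 in replicate 2 and 1739.5 in replicate 4, against 2691 and 1997.5 for the rest; these ranks were not tested. At S the site lay 1 bp below the summit (signal 668, ranks 90 and 97). At pum it lay 9 bp above a summit 30865 bp from the nearest start (signal 340, ranks 480 and 430 in replicates 2 and 4), and at Raf, which encodes a kinase of the MAP kinase cascade, 12 bp below (signal 322, ranks 359 and 568). At spen, which encodes an RNA-binding corepressor, the site lay 1 bp below the summit (signal 293, ranks 286 and 934). Of the 36, 4 also held TGCATA and 1 held an MRE core. Neither TGTTTAC nor TGCATA nor the core stood in 257 members, the strongest peak in sbb among them.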

How the data were processed

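Peak lists from MTF-1-GFP embryos (1 group, biological replicates 2 and 4) were used on dm6. Per the deposited read-me, the authors made a list of peaks and background for each replicate and for pooled alignments, and a thresholded list from these by the irreproducible discovery rate (IDR). The authors' signal value per region has no stated scale. A deposited column holds the −log10 q-value of each region, which stood at its maximum of 3.66 in 202 members, and the summit offset in bp. No source used here names the peak caller, aligner, IDR threshold or read depth.

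From these, summits were annotated with Ensembl release 115 (BDGP6.54, the same assembly as dm6) on chromosomes 2L, 2R, 3L, 3R, 4 and X. Sequence was RefSeq's. Shares carry 95% Clopper-Pearson intervals. Motifs were compared within 50 bp of summits and 500 bp to the side by exact McNemar tests, adjusted by Benjamini-Hochberg over 27 motifs or 2080 words; groups of peaks were compared by two-sided Fisher's exact tests. The comparisons of groups in intergenic and start-proximal peaks and of first introns were added after seeing the data. A peak within a replicate list was matched by at least 1 bp. The test scripts were tested on simulated data. Python 3.11.15, pandas 2.3.3 and scipy 1.17.1 were used.

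The members and lists were chosen with earlier results of these data known. Named peaks were the 20 of highest signal, 9 of the 10 of highest signal with a core, and 4 on either side of the 5000 bp boundary; named hosts were those with most peaks. spen, Psc and Raf were also named after their values were seen. Alternatives tried were the signal cut, start distance, start set, window, flank, overlap, each replicate alone, unmasked windows and the strongest peak per host. A few list genes are not used here, and the windows of 2 named peaks are not reported here.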

Additional observations from a re-analysis of the deposited data

How the results depend on the processing

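The lower signal of the members held at the upper quartile and in each replicate list alone. Restricting to peaks at or above the list median left 143 members, 124 hosts and 5.06 peaks per Mb. A start distance of 3000 bp gave 546 members and 15.1 per Mb; 10000 bp gave 136 members, 94 hosts and 7.90 per Mb. With 1 replicate list left out, members ranged from 328 to 373, hosts from 207 to 257 and density from 11.6 to 13.2 per Mb. Overlap of at least 50% of both regions gave 85.2% in replicate 2 and 92.3% in replicate 4; against the strongest regions these were 66.5% and 86.6%.

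The core share at summits minus flanks, -0.852 points, turned to 3.41 with the flank at 1000 bp (exact McNemar p = 0.126) and ranged from -3.49 to 0.305 without 1 replicate, the latter without replicate 4. Against other peaks, without 1 replicate, it ranged from -4.78 (passing, adjusted Fisher's exact p = 0.0259, without replicate 4) to -2.60. Against intronic peaks 1 to 5 kb from a start it turned to 0.579 with the signal cut and 1.36 with 1 peak per host, and ranged from -3.26 to -0.584 without 1 replicate. Passing motifs, 3 in all, fell to 1 with the signal cut, with 100 bp windows or on the higher flank. They ranged from 0 (without replicate 2, exact McNemar test; 4 at unadjusted p under 0.05) to 2 without 1 replicate. Passing words, 10 in all, were 3 with the signal cut, 5 with 1 peak per host and 4 to 29 without 1 replicate. The GC difference, -2.87 points, ranged from -5.60 to 1.07 (without replicate 4). TGTTTAC missed on the lower flank only without replicate 2 (adjusted exact p = 0.0912), and on the higher flank with the signal cut (0.117). TGCATA and the A run each lost their call under several settings. The cause was not tested. No paired analysis was possible because there was 1 group, so replicate numbers could pair no samples across groups. Unknown depth limits every share.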
